A study of Rattus norvegicus with 6 samples.

Results

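*Txnip*, its relatives the alpha-arrestins, the glucose-sensing Mondo transcription factors and the thioredoxins that TXNIP binds were followed in the corneal epithelium of diabetic and normal rats. The 10 genes *Txnip*, *Arrdc1*, *Arrdc2*, *Arrdc3*, *Arrdc4*, *Mlx*, *Mlxip*, *Mlxipl*, *Txn1* and *Txn2* were taken by name from the 61453 loci of the gene tables. Where several rows carried a name, the protein coding row with the highest mean FPKM was used. FPKM is a fragment count scaled by the length of the locus and the depth of the library. Levels set side by side between genes in FPKM therefore depend on the locus lengths used. Under their own names 9 of the 10 genes were found, and *Mlxipl* was not analysed here.

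The diabetic group was male Brown Norway rats 16 weeks after a single 50 mg/kg intraperitoneal dose of streptozocin, a toxin of the insulin-producing beta cells, with blood glucose readings above 16.67 mmol/l. The normal group was male Brown Norway rats that received citrate buffer alone and were sampled at 16 weeks too. Each group had 3 libraries of RNA from epithelium scraped off excised corneas. The labels name each library as a rat sample, the sources used here do not say how corneas were combined, and p-values measure only the spread between these samples. Total counts ran from 62288901 to 87040253 per library.

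TXNIP and the ARRDC proteins are arrestin-fold adaptors that recruit NEDD4-family ubiquitin ligases to membrane proteins and so steer their uptake. TXNIP also binds reduced thioredoxin and holds it inactive, and it promotes the removal of the glucose transporter GLUT1 from the cell surface. The Mondo factors, MondoA (gene *Mlxip*) and ChREBP (gene *Mlxipl*), enter the nucleus when glucose 6-phosphate is plentiful, pair with MLX and bind carbohydrate response elements, which are pairs of E-box-like motifs. *Txnip* and *Arrdc4* are well-known direct MondoA targets, and *Txnip* is widely used as a transcript that follows glucose in many tissues.

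Because the Mondo factors read E-box letters, the 250 bases before the gene start were searched on both strands in the RefSeq promoter windows of build GRCr8. These held 9 of the 10 genes, *Mlxipl* among them, and the gene with no window was *Txnip*. The palindrome CACGTG was found once in *Arrdc4*, at −177 to −172 counted from the start, and once in *Mlx*, at −70 to −65. The variant CACGAG was found once each in *Mlxip* and *Txn1*, at −46 to −41 in *Mlxip* and −31 to −26 in *Txn1*. CACGTG is present in 5.59% of the 33469 windows of that length and CACGAG in 5.39%. A pair of CACGNG boxes 5 bases apart and in the same orientation was searched too. In it N is any base, and it overlaps both shorter motifs. This pair is present in 0.0269% of windows and in none of the 9 windows searched. Pairs whose boxes face opposite ways were not searched as such, so the result does not cover every form of carbohydrate response element. The matches are descriptions of letters only. The stretch before *Arrdc4*, the gene with the largest difference below, and short stretches of *Mlx* and *Mlxip*, which encode the DNA-binding partners, show these letters in capitals. They lie at chr1:131793426-131793675 on the minus strand, chr10:86519786-86519851 on the plus strand and chr12:38853070-38853135 on the minus strand.
Arrdc4: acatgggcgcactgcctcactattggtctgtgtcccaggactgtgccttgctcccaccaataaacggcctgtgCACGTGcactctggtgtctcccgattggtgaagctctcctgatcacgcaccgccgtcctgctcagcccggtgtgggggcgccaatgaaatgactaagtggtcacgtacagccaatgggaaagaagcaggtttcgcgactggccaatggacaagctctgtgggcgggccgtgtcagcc
Mlx: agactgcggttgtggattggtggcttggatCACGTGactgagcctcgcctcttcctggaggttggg
Mlxip: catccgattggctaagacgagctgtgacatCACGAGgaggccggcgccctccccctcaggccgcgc

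Before the comparisons, the tissue and the libraries were checked. The corneal keratin gene *Krt12* was at 3858 to 4455 FPKM in diabetic and 3660 to 4223 FPKM in normal libraries. The files carried 5 of the 6 listed epithelial markers, and all 5 were tested. Of these, 1 lay higher in diabetic libraries without overlap between groups, *Upk1b*, at 302.6 to 345.5 FPKM in diabetic and 243.9 to 271.9 FPKM in normal libraries. Markers of other tissues were uneven. The summed FPKM of 10 lens markers was 149.5, 1273 and 3.28 in diabetic replicates 1, 2 and 3, against 108.3 to 362 in normal libraries, and *Crybb1*, *Crybb3* and *Lim2* were listed at 0 in diabetic replicate 3, *Lim2* also in diabetic replicate 1. The summed FPKM of 5 keratocyte markers was 702 to 795 in diabetic and 804 to 1012 in normal libraries, and that of 8 immediate early genes 99.3 to 304 in diabetic and 166 to 298 in normal libraries. Conjunctival markers (3 tested) summed to 1223, 1189 and 550 FPKM in diabetic replicates 1, 2 and 3, against 870 to 1442 FPKM in normal libraries. Lower in diabetic libraries without overlap were the keratocyte marker *Lum* (102 to 122.9 against 148.1 to 171.6 FPKM) and the immune marker *Cd74* (2.68 to 3.35 against 3.97 to 8.03 FPKM). No other tested marker separated the groups. Over all loci 3.94% lay higher and 5.72% lower in diabetic libraries without overlap.

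Across the 9 genes no difference between diabetic and normal libraries passed the test. *Arrdc4* stood 1.63 times higher in mean FPKM in diabetic libraries, and *Arrdc1* 1.22 times higher. In both cases all diabetic libraries lay above all normal ones. *Txnip* itself did not separate the groups, since only diabetic replicate 3 stood above the normal libraries. *Arrdc3*, *Mlx*, *Mlxip*, *Txn1* and *Txn2* overlapped between groups, with ratios of mean FPKM between 0.932 and 1.04, and so did the scarce *Arrdc2*.

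The test was limma on quantile-normalized log2(FPKM + 1) of 42551 loci whose FPKM averaged 0.5 or more, and all 9 genes reached that filter. A gene passed at an adjusted p (Benjamini-Hochberg, over all loci) under 0.05 and a fold change over 1.2, and log2 fold changes below are on this scale, which understates the change of low genes. By this rule 0 of 9 genes passed with limma, against 0.0259% of all loci. With edgeR on the counts 0 of 9 passed (0.0141% of loci), and with DESeq2 0 of 9 (0.234% of the loci with an adjusted p). An unadjusted limma p under 0.05 was seen for 2 of the 9, *Arrdc1* and *Arrdc4*, both higher, where 4.8% of all loci had one in either direction. With edgeR the same 2 genes had an unadjusted p under 0.05, as did 4.14% of loci. With DESeq2 the unadjusted p was 0.00251 for *Arrdc4* and 0.0591 for *Arrdc1*, which is past 0.05. Without diabetic replicate 3 the limma p of *Arrdc4* was 0.0523 (log2 fold change 0.51). The same 2 genes were the ones with no overlap between groups, a pattern that 3.94% of loci show with diabetic values higher and 5.72% with diabetic values lower. Of the 9 log2 fold changes 5 were positive and 4 negative, with a median of 0.06, against −0.0049 over all loci.

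**Figure D1:**
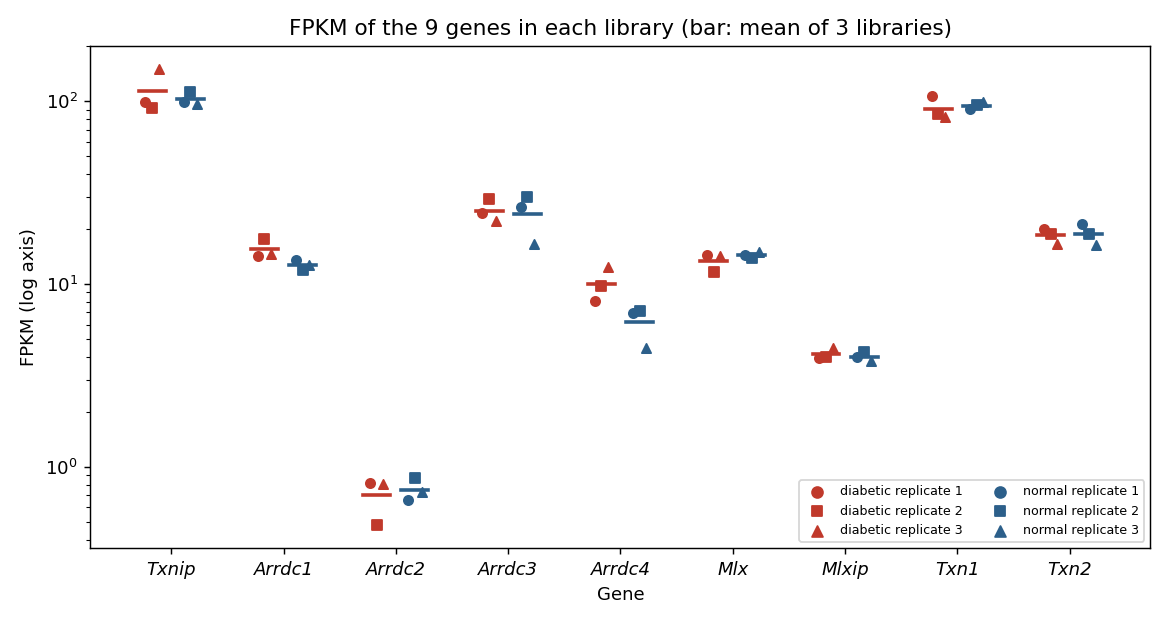
FPKM (log axis) of the 9 genes in each library, diabetic (red) left of normal (blue); symbols mark the replicate number and bars the mean of 3 libraries. *Arrdc4* and *Arrdc1* are the genes whose diabetic points all lie above the normal ones, and *Txnip* is high in diabetic replicate 3 alone.

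*Txnip* lies on chromosome 2 at 198683159 to 198686974 (rn6, plus strand), and it was the most abundant alpha-arrestin transcript in every library. It had 99.7, 91.5 and 150.8 FPKM in diabetic replicates 1, 2 and 3, against 98.7, 112.3 and 96.4 FPKM in normal replicates 1, 2 and 3. Diabetic replicates 1 and 2 therefore lay within or below the normal range, while diabetic replicate 3 lay above it. In counts these were 27214, 17913 and 30559 in diabetic libraries, against 24534, 27039 and 24794 in normal ones. Mean FPKM was 114.0 ± 32.1 in diabetic and 102.4 ± 8.59 in normal libraries (SD, n = 3 each). The log2 fold change was 0.12 (SE 0.22, 95% interval −0.39 to 0.62, limma adjusted p 0.978), so a change between 0.765 and 1.54 times is within the interval. An exact two-sided permutation test of FPKM gave p 0.8, where the smallest p that 3 against 3 libraries can give is 0.1. Without diabetic replicate 3 the log2 fold change was −0.14, the opposite direction. That library also held the least lens and conjunctival RNA, and the part of these tissues in its *Txnip* value was not tested. In bulk RNA a change in the share of a cell type and a change in RNA per cell cannot be told apart.

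*Arrdc4*, whose protein like TXNIP acts on glucose transporters, lies on chromosome 1 at 129766100 to 129776276 (minus strand). It had 8.06, 9.82 and 12.3 FPKM in diabetic replicates 1, 2 and 3, against 6.92, 7.12 and 4.48 FPKM in normal replicates 1, 2 and 3. The lowest diabetic library stood above the highest normal library, and the extremes of the gene were diabetic replicate 3 and normal replicate 3. Counts were 5064, 4428 and 5754 in diabetic libraries and 3962, 3949 and 2656 in normal ones. Means were 10.1 ± 2.15 FPKM in diabetic and 6.17 ± 1.47 FPKM in normal libraries (SD, n = 3 each). The log2 fold change was 0.66 (SE 0.21, 95% interval 0.17 to 1.14), with an unadjusted p of 0.0142 and an adjusted p of 0.953 from limma. The exact permutation test gave p 0.1, the smallest it can give. With edgeR the log2 fold change was 0.73 (adjusted p 0.991) and with DESeq2 0.73 (adjusted p 0.326), and over all 22 alternatives the adjusted p ran from 0.326 to 1.00. Leaving out 1 library at a time gave 0.47 (without normal replicate 3) to 0.80 (without diabetic replicate 1).

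*Arrdc1*, an adaptor that drives budding of small vesicles from the plasma membrane, lies on chromosome 3 at 2129879 to 2136936 (minus strand). It had 14.2, 17.6 and 14.7 FPKM in diabetic replicates 1, 2 and 3, against 13.5, 12.0 and 12.7 FPKM in normal replicates 1, 2 and 3. The gap between the groups was narrow, from 13.5 to 14.2 FPKM, and diabetic replicate 2 lay apart above the rest. Means were 15.5 ± 1.81 FPKM in diabetic and 12.7 ± 0.763 FPKM in normal libraries (SD, n = 3 each). The log2 fold change was 0.28 (SE 0.11, 95% interval 0.01 to 0.55, limma p 0.0411, adjusted p 0.953). Without diabetic replicate 2 it was 0.19, with an unadjusted limma p of 0.128, and leaving out any other library except diabetic replicate 1 also put that p above 0.05 (0.0537 to 0.118). The unadjusted p was 0.0591 with DESeq2, 0.0562 with library medians set equal and 0.0899 with limma without a trend.

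*Arrdc3*, which in human cells routes the beta 2 adrenergic receptor and integrin beta 4 for degradation, was the second most abundant alpha-arrestin and lies on chromosome 2 at 8732932 to 8747076 (plus strand). It had 24.4, 29.2 and 22.2 FPKM in diabetic replicates 1, 2 and 3, against 26.3, 30.03 and 16.6 FPKM in normal replicates 1, 2 and 3. The highest and the lowest value both came from normal libraries. The log2 fold change of 0.11 (SE 0.21, 95% interval −0.38 to 0.60, limma adjusted p 0.978) turned to −0.13 without normal replicate 3.

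*Arrdc2*, a less studied adaptor of the same fold on chromosome 16 (20352480 to 20356612, plus strand), was scarce. It had 0.820, 0.478 and 0.809 FPKM in diabetic replicates 1, 2 and 3, against 0.661, 0.868 and 0.725 FPKM in normal replicates 1, 2 and 3. These values rest on 189, 79 and 138 counts in diabetic and 139, 176 and 157 counts in normal libraries, and the lowest came from diabetic replicate 2. The log2 fold change was −0.02 (SE 0.23, limma adjusted p 0.996), and it was 0.06 without diabetic replicate 2. *Arrdc5*, the remaining alpha-arrestin and not among the 10 genes, had 0 counts in all 6 libraries, which allows a level of up to 0.0345 to 0.0482 CPM (3 counts of a library's total, counting error only). It was singled out after its values had been seen.

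The share of *Arrdc4* in the family was also set beside its level. Of the summed FPKM of the 5 alpha-arrestin genes *Arrdc4* made up 5.47%, 6.61% and 6.14% in diabetic replicates 1, 2 and 3, against 4.74%, 4.39% and 3.42% in normal replicates 1, 2 and 3. The share of *Txnip* was 67.7%, 61.6% and 75.1% in diabetic and 67.6%, 69.2% and 73.7% in normal libraries. The ratio of *Txnip* FPKM to *Arrdc4* FPKM was 12.4, 9.32 and 12.2 in diabetic and 14.3, 15.8 and 21.5 in normal libraries, and the groups did not overlap. The ratio of *Arrdc3* FPKM to *Arrdc4* FPKM was 3.03, 2.97 and 1.80 in diabetic and 3.80, 4.22 and 3.70 in normal libraries, again without overlap. These ratios were chosen after the values had been seen and rest on the same *Arrdc4* values, so no test is given.

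**Figure D2:**
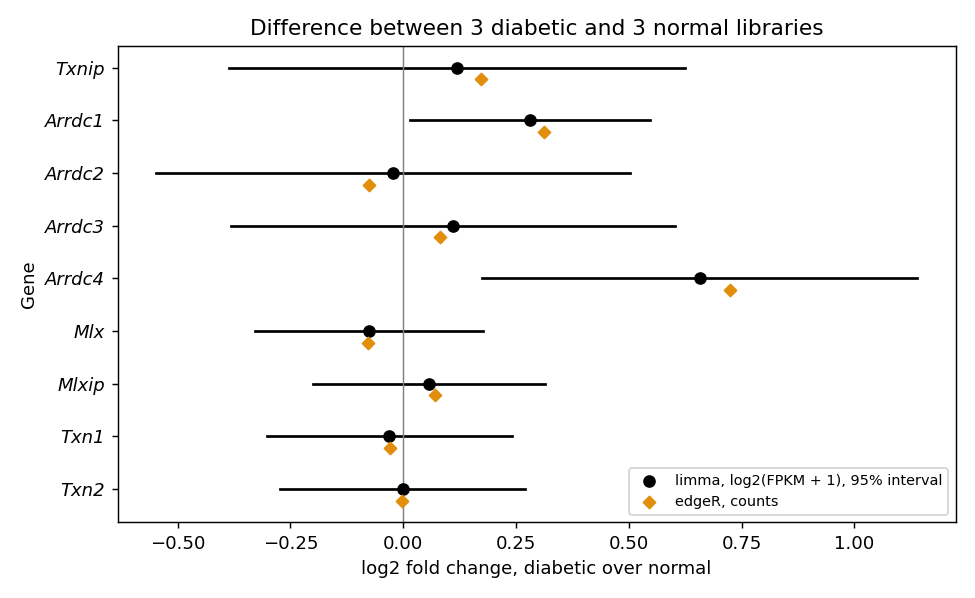
Log2 fold changes, diabetic over normal, of the 9 genes: black points with 95% intervals from limma on log2(FPKM + 1), and orange diamonds from edgeR on counts. Only the intervals of *Arrdc4* (0.17 to 1.14) and *Arrdc1* (0.01 to 0.55) lie above 0, and neither gene passed after adjustment.

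The genes of the Mondo factors lay closer together than the arrestins did. *Mlxip*, which encodes MondoA, lies on chromosome 12 at 38567247 to 38638819 (minus strand). It had 3.95, 3.99 and 4.49 FPKM in diabetic replicates 1, 2 and 3, against 3.98, 4.24 and 3.81 FPKM in normal replicates 1, 2 and 3. Its log2 fold change was 0.06 (SE 0.11, 95% interval −0.20 to 0.31, limma adjusted p 0.978). Another 3 rows carry its name without a transcript type: one on the plus strand inside the gene at 1.48 to 2.28 FPKM in diabetic and 2.37 to 3.13 FPKM in normal libraries, and a pair with no strand at 1.45 to 2.48 FPKM in diabetic and 0.694 to 4.03 FPKM in normal libraries. Added to the main row, they turn the log2 fold change to −0.03. The sources used here do not say whether reads were counted by strand.

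*Mlx*, the shared partner of both Mondo factors, lies on chromosome 10 at 88997019 to 89002152 (plus strand). It had 14.4, 11.6 and 14.3 FPKM in diabetic replicates 1, 2 and 3, against 14.4, 13.8 and 15.0 FPKM in normal replicates 1, 2 and 3. Diabetic replicate 2 was the low one, and without it the log2 fold change of −0.08 (SE 0.11, 95% interval −0.33 to 0.18, limma adjusted p 0.969) was 0.01. *Mlx* stood 2.91 to 3.64 times above *Mlxip* in diabetic and 3.26 to 3.93 times in normal libraries, in FPKM.

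*Txn1*, the cytosolic and nuclear thioredoxin that reduces disulfides, had the most counts of the 9 genes and lies on chromosome 5 at 75012274 to 75061924 (minus strand). It had 106.6, 85.4 and 81.9 FPKM in diabetic replicates 1, 2 and 3, against 90.4, 95.2 and 98.9 FPKM in normal replicates 1, 2 and 3. The diabetic values lay on both sides of the normal range, and none of them inside it. The log2 fold change was −0.03 (SE 0.12, 95% interval −0.30 to 0.24, limma adjusted p 0.990). *Txn2*, the mitochondrial thioredoxin on chromosome 7 (119144351 to 119158201, minus strand), had 19.9, 18.8 and 16.7 FPKM in diabetic replicates 1, 2 and 3, against 21.3, 18.8 and 16.4 FPKM in normal replicates 1, 2 and 3. Its log2 fold change was −0.0012 (SE 0.12, 95% interval −0.27 to 0.27). *Txnip* FPKM over *Txn1* FPKM was 0.935, 1.07 and 1.84 in diabetic and 1.09, 1.18 and 0.974 in normal libraries, overlapping between groups. The size of this ratio depends on the locus lengths. The *Txn1* row spans 49651 bases, against 13851 bases for *Txn2*. How much of its reads came from *Txn1* transcripts was not tested, so its counts, FPKM and ratios are uncertain. In counts *Txn1* stood above *Txnip* in every library, with 48870 to 85736 in diabetic and 66184 to 74960 in normal libraries.

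In mean FPKM of diabetic libraries the order was *Txnip* (114.0), *Txn1* (91.3), *Arrdc3* (25.3), *Txn2* (18.5), *Arrdc1* (15.5), *Mlx* (13.4), *Arrdc4* (10.1), *Mlxip* (4.14) and *Arrdc2* (0.703). Neighbours whose diabetic libraries overlapped were *Txnip* with *Txn1*, *Txn2* with *Arrdc1*, *Arrdc1* with *Mlx*, and *Mlx* with *Arrdc4*. In normal libraries the order was the same except that *Mlx* (14.4) stood above *Arrdc1* (12.7), and the neighbours that overlapped were *Txnip* with *Txn1* and *Arrdc3* with *Txn2*. Among the 11570 tested loci annotated as protein coding, *Txnip* ranked 168th and *Txn1* 201st by mean FPKM over the 6 libraries, while *Arrdc2* ranked 11078th. The order depends on the locus lengths behind the FPKM. Counts and FPKM together imply a length of about 9272 bases for *Txn1* and 1289 bases for *Txn2*, against 3147 for *Txnip* and 7249 for *Arrdc4*, if FPKM was scaled by the total of the table. Within a gene the implied length varied little across libraries (9236 to 9343 bases for *Txn1*), so the length cancels between groups. With its long implied length the *Txn1* row may hold other transcripts too, so its level and rank are uncertain.

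The genes also differed in how far replicates scattered. The within-group coefficient of variation was 21.7% for *Txnip*, 22.3% for *Arrdc3*, 22.7% for *Arrdc4* and 21.5% for *Arrdc2*. It was 6.40% for *Mlxip*, 8.58% for *Mlx*, 9.84% for *Arrdc1*, 10.7% for *Txn1* and 11.1% for *Txn2*. Against protein coding loci within 0.5 log2 units of their own mean FPKM, *Txnip*, *Arrdc3* and *Arrdc4* lay at the percentiles 80.9, 86.9 and 88.5 of this scatter, and *Mlxip* at 9.85.

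**Figure D3:**
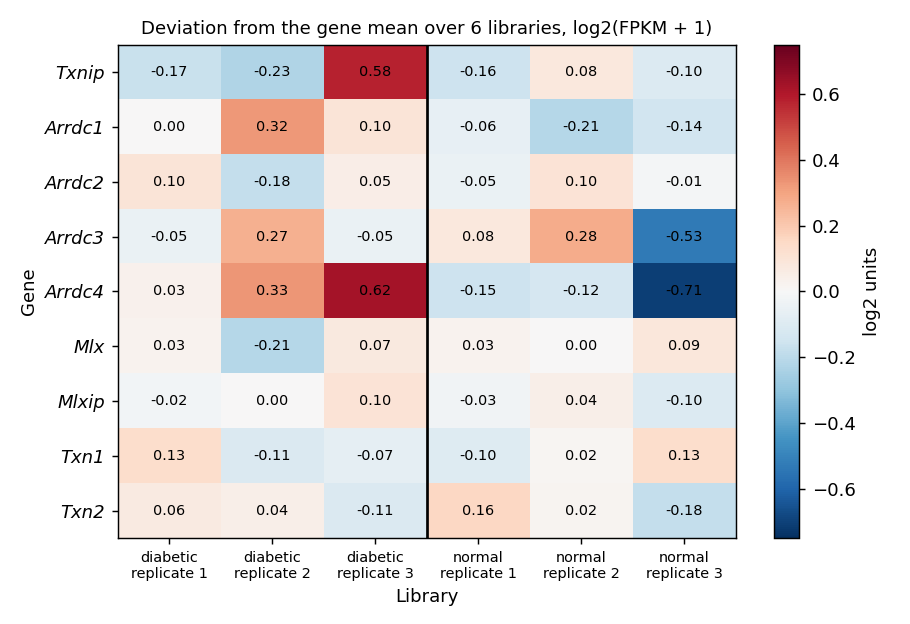
Deviation of each gene from its mean over the 6 libraries on the quantile-normalized log2(FPKM + 1) scale, diabetic libraries on the left. *Arrdc4* runs from 0.62 in diabetic replicate 3 to −0.71 in normal replicate 3, and *Txnip* reaches 0.58 in diabetic replicate 3 alone.

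The protein coding loci whose pattern over the 6 libraries was most like that of *Txnip* were *Slco4a1* (Pearson r 0.99, Spearman rho 1), an organic anion transporter, *Gpr4* (0.99 and 1), a proton-sensing receptor, *Cald1* (0.98 and 0.71), the actin-binding caldesmon, *Gstm5* (0.97 and 0.94), a glutathione transferase, and *Il6st* (0.97 and 0.94), the gp130 cytokine receptor subunit. *Il6st* had 16.4, 14.2 and 31.1 FPKM in diabetic replicates 1, 2 and 3, against 16.7, 18.5 and 19.0 FPKM in normal replicates 1, 2 and 3. All 5 were highest in diabetic replicate 3, as *Txnip* was. Of the 11288 loci compared 119 had r over 0.9, and the 6 points share libraries and depth, so the values only describe the pattern. *Arrdc4* ranked 1712th (r 0.53, rho 0.03) and *Mlxip* 509th (0.77 and 0.43), while *Txn2* stood at −0.49 and −0.60.

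Genes that work with these proteins were taken from lists. The list of 27 Mondo targets held genes of glycolysis and lipid synthesis and others outside them, such as *Klf10* and *Bhlhe40*. Of the 27 genes 20 were tested, and 12 log2 fold changes were above 0 and 8 below (median 0.04). *Elovl6*, a fatty acid elongase, stood at 6.65 ± 0.966 FPKM in diabetic and 5.55 ± 0.409 FPKM in normal libraries (SD, n = 3 each), and *Acaca*, acetyl-CoA carboxylase, at 8.18 FPKM in diabetic and 7.33 FPKM in normal libraries. *Gpd1*, glycerol 3-phosphate dehydrogenase, stood at 2.64 FPKM in diabetic and 3.64 FPKM in normal libraries. None of the 20 passed with limma, edgeR or DESeq2, none had an unadjusted limma p under 0.05, and none separated the groups.

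Among 12 tested genes of glucose entry and phosphorylation 9 log2 fold changes were positive and 3 negative (median 0.07), and none had an unadjusted limma p under 0.05. *Slc2a1*, which encodes the TXNIP cargo GLUT1, was at 31.8, 28.3 and 25.7 FPKM in diabetic replicates 1, 2 and 3, against 30.3, 25.6 and 22.2 FPKM in normal replicates 1, 2 and 3. *Slc2a12*, a further glucose transporter, stood at 7.69 ± 0.901 FPKM in diabetic and 6.57 ± 0.337 FPKM in normal libraries (log2 fold change 0.21, SE 0.12), and *Slc2a8* at 2.67 FPKM in diabetic and 2.47 FPKM in normal libraries. Of the partners and cargo of alpha-arrestins 5 of 8 were positive (median 0.04), among them the stress kinase gene *Map3k5* at 4.98 FPKM in diabetic and 4.11 FPKM in normal libraries and *Egfr*, the EGF receptor, at 9.61 FPKM in diabetic and 8.58 FPKM in normal libraries.

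*Txnrd1*, the cytosolic reductase that recycles thioredoxin 1, had 7.19, 10.7 and 7.69 FPKM in diabetic replicates 1, 2 and 3, against 5.26, 5.81 and 6.54 FPKM in normal replicates 1, 2 and 3. All diabetic libraries lay above all normal ones, with a log2 fold change of 0.48 (SE 0.16, unadjusted limma p 0.0209, adjusted p 0.953). Of the 15 tested reductases and thioredoxin-dependent enzymes 7 were positive and 8 negative (median −0.03), and *Txnrd1* was the one with an unadjusted limma p under 0.05. Without overlap between groups, 2 of the 15 lay higher in diabetic libraries, *Txnrd1* and *Prdx2*, and 1 lay lower, *Txnrd3*. Over all loci 3.94% lay higher and 5.72% lower in diabetic libraries without overlap. *Prdx2*, a cytosolic peroxiredoxin named after its values had been seen, had 139.6, 142 and 136 FPKM in diabetic replicates 1, 2 and 3, against 123.7, 129.3 and 123.3 FPKM in normal replicates 1, 2 and 3 (log2 fold change 0.15, SE 0.10, limma adjusted p 0.953). *Txnrd3*, a testis-enriched reductase, stood at 1.49 FPKM in diabetic and 1.90 FPKM in normal libraries, and *Nxn*, nucleoredoxin, at 5.70 FPKM in diabetic and 4.87 FPKM in normal libraries. Of 18 thioredoxin-fold genes 6 were positive and 12 negative (median −0.02), and 3 lay lower in diabetic libraries without overlap, *Txndc15*, *Glrx2* and *Txndc9*, the last named after its values had been seen. *Txndc15* stood at 8.59 FPKM in diabetic and 9.93 FPKM in normal libraries and *Txndc17* at 12.8 FPKM in diabetic and 14.9 FPKM in normal libraries, while *Glrx2* (3.36 FPKM in diabetic and 5.30 FPKM in normal libraries) shares its locus name with *Uchl5* and is uncertain.

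Of 8 tested NEDD4-family ligases, the enzymes that alpha-arrestins recruit, 6 log2 fold changes were above 0 and 2 below (median 0.13). *Wwp2* had 12.4, 13.2 and 14.0 FPKM in diabetic replicates 1, 2 and 3, against 11.4, 11.4 and 11.2 FPKM in normal replicates 1, 2 and 3, without overlap (log2 fold change 0.23, SE 0.10, limma adjusted p 0.953). *Nedd4* stood at 71.9 ± 7.85 FPKM in diabetic and 59.45 ± 12.95 FPKM in normal libraries, and *Smurf2* at 7.41 ± 2.46 FPKM in diabetic and 5.52 ± 1.52 FPKM in normal libraries. Other arrestin-fold genes were split, 4 positive and 3 negative (median 0.0041), with *Arrb1*, beta-arrestin 1, at 17.6 FPKM in diabetic and 14.0 FPKM in normal libraries, *Arr3*, cone arrestin, at 5.38 FPKM in diabetic and 6.77 FPKM in normal libraries, and *Vps26c* at 6.49 FPKM in diabetic and 6.20 FPKM in normal libraries. In the MAX and MLX network 7 of 10 were positive (median 0.06), with *Mxd3* at 7.78 FPKM in diabetic and 6.51 FPKM in normal libraries, *Mycl* at 4.99 FPKM in diabetic and 3.52 FPKM in normal libraries and *Myc* at 2.77 FPKM in diabetic and 3.84 FPKM in normal libraries. Of the network *Mxd4*, named after its values had been seen, lay lower in diabetic libraries without overlap (mean 7.18 FPKM, against 8.22 FPKM in normal libraries). Beside *Wwp2* and *Mxd4*, no tested gene of these 3 lists separated the groups. Over all loci 3.94% lay higher and 5.72% lower in diabetic libraries without overlap. No gene of these 3 lists had an unadjusted limma p under 0.05.

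**Figure D4:**
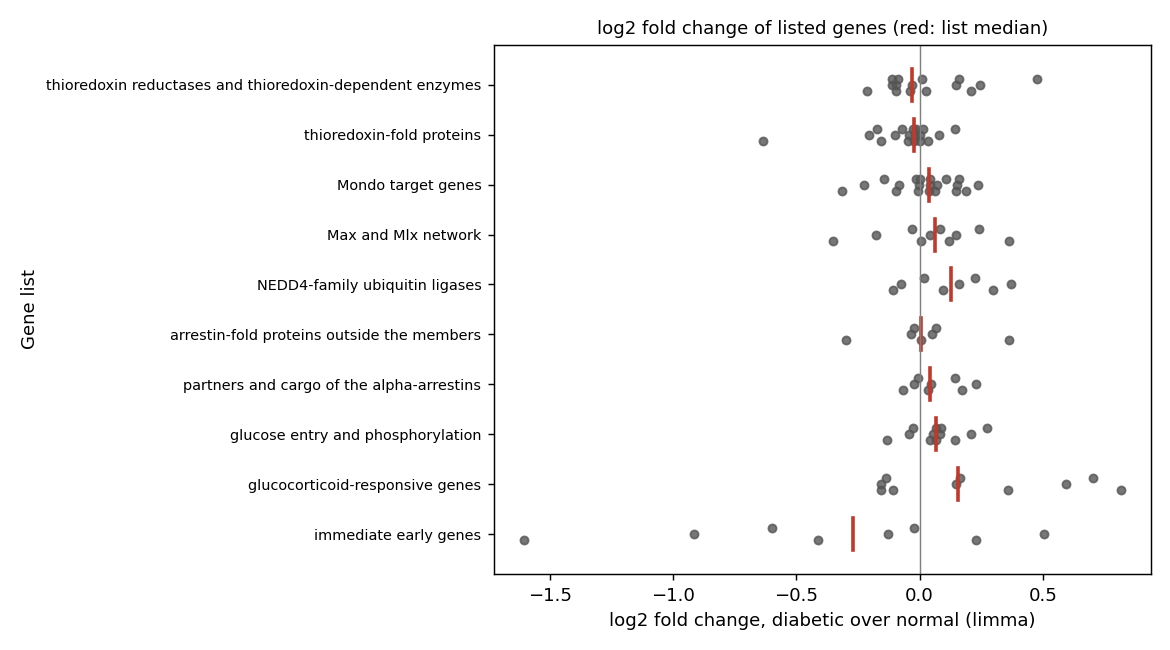
Log2 fold changes (limma, diabetic over normal) of the tested genes of 10 lists around the thioredoxin, arrestin and Mondo genes; each point is 1 gene and the red line the list median. Medians lie between −0.27 for immediate early genes and 0.16 for glucocorticoid-responsive genes, and no point passed the adjusted test.

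*Txnip* and several arrestin genes also respond to glucocorticoids in other tissues, so genes with that response were set beside them. Of 10 tested, 6 were positive and 4 negative (median 0.16). The 4 negative ones were *Sgk1*, *Ddit4*, *Errfi1* and *Nr3c1*, named after their values had been seen. An unadjusted limma p under 0.05 was seen for 3 of the 10, all of them higher and without overlap. Over all loci 4.8% had such a p in either direction, and 3.94% lay higher in diabetic libraries without overlap. *Fkbp5*, a chaperone of the glucocorticoid receptor, had 9.61, 8.79 and 13.7 FPKM in diabetic replicates 1, 2 and 3, against 7.14, 6.88 and 6.25 FPKM in normal replicates 1, 2 and 3 (log2 fold change 0.59, SE 0.17). *Cebpd*, a stress-induced transcription factor, stood at 5.51 ± 2.19 FPKM in diabetic and 2.86 ± 0.175 FPKM in normal libraries (SD, n = 3 each). *Tsc22d3*, which encodes GILZ, stood at 6.11 ± 2.01 FPKM in diabetic and 3.17 ± 1.34 FPKM in normal libraries and is uncertain, since its locus name joins another gene. *Tsc22d3* had its highest value, 8.34 FPKM, in diabetic replicate 3 and its lowest, 1.72 FPKM, in normal replicate 3, the same libraries as *Arrdc4*. That match was picked after the values had been seen. *Fkbp5* had the same extreme libraries, while *Cebpd* was highest in diabetic replicate 1 (7.73 FPKM). Diabetic replicate 3 held the lowest diabetic value of *Cebpd* (3.36 FPKM). A part of glucocorticoids in the *Arrdc4* values was not tested. None passed with limma (adjusted p 0.953), edgeR or DESeq2. Of the 8 tested immediate early genes, which respond within minutes to handling, 2 were positive and 6 negative (median −0.27), with *Egr1* at 14.9, 0.459 and 2.82 FPKM in diabetic libraries and 9.001, 4.17 and 45.7 FPKM in normal ones. *Jun* stood at 17.9 ± 17.2 FPKM in diabetic and 29.7 ± 18.1 FPKM in normal libraries. The study listed *Jun* as upregulated in the diabetic group, the opposite direction of these means. *Junb* stood at 76.3 ± 34.1 FPKM in diabetic and 96.7 ± 8.01 FPKM in normal libraries. The part of handling in the arrestin values was not tested.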

How the data were processed

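RNA of corneal epithelium was measured in 3 diabetic and 3 normal libraries. The submitters' processing notes name cutadapt, FastQC, Bowtie2 and the build rn6, without versions or order. The sources used here do not name the counting program. The authors deposited raw counts per locus and FPKM values per locus. The placeholder FPKM at a count of 0 was set to 0. Log2(FPKM + 1) was quantile-normalized over loci averaging 0.5 FPKM or more. These values were tested with limma 3.58.1 in R 4.3.3 (eBayes with trend), following the study's use of limma. At the same fold and adjusted p thresholds the study reported far more differential mRNAs than the loci called here. The cause of that difference was not tested. The counts were tested with the edgeR 4.0.16 quasi-likelihood test and with DESeq2 1.42.0 as alternatives. The methods were tested on simulated data. No 2 libraries of a group agreed within counting noise, so none was merged. This check covers counting error only (chi-square per degree of freedom 55.0 to 104.2). The genes and lists were chosen with earlier results of these data known. All 10 genes were named, and from each list the 3 tested genes of smallest limma p, plus the 5 loci most correlated with *Txnip*. A planned search of protein motifs was not run, since no protein sequences were used here. Figures were drawn with matplotlib 3.10.9.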

Additional observations from a re-analysis of the deposited data

How the results depend on the processing

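The 9 genes were followed over 22 settings beside the main one, which gave 197 log2 fold changes. The settings were other tests, normalizations, pseudocounts, filters, loci, variance priors, weights and left-out libraries. No gene passed, and 183 of the 197 values kept the direction of the main fit. *Arrdc1* and *Arrdc4* kept theirs in all 22 settings. For each gene 1 setting took the row of highest mean FPKM from the main fit. That was the main row, so it agreed by construction. Summing the rows of a name also left genes with a single row nearly unchanged. Of 14 reversals, leaving out a library accounted for 10. Without diabetic replicate 3 the log2 fold change was −0.14 for *Txnip* and 0.054 for *Txn2*; without diabetic replicate 2 it was 0.061 for *Arrdc2*, 0.012 for *Mlx* and 0.014 for *Txn1*; without normal replicate 1 it was 0.076 for *Txn2*. Without normal replicate 2 it was 0.022 for *Arrdc2* and 0.0092 for *Txn2*, and without normal replicate 3 −0.13 for *Arrdc3* and 0.026 for *Txn1*. The opposite ends of the ranges with 1 library left out were 0.26 for *Txnip*, −0.077 for *Arrdc2*, 0.28 for *Arrdc3*, −0.13 for *Mlx*, −0.11 for *Txn1* and −0.090 for *Txn2*. *Txn2* was 0.0020 with DESeq2, 0.0024 with cyclic loess and 0.00074 among protein coding loci, and *Mlxip* was −0.030 with its rows summed. The number of loci called over the whole table was 11, and it was 6 with edgeR, 99 with DESeq2, 6 with a pseudocount of 0.1, 3 without a filter on low values, 3 among protein coding loci and 3 to 10 with 1 library left out; the cause was not tested. The replicate numbers did not pair the libraries (r of same-numbered deviations −0.0092, 0.025 and 0.032, and only diabetic replicate 3 correlated best with its own number), and with a replicate block 1 locus and 0 of the 9 genes were called. The replicate block gave *Arrdc4* an adjusted p of 0.926 and *Arrdc1* an unadjusted p of 0.0721. With a mean FPKM of at least 1, *Arrdc2* was not tested.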
